A study of Mus musculus with 20 samples.

Results

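The 10 genes described here encode enzymes that make nicotinamide adenine dinucleotide (NAD) or divert its precursors, and they were taken by symbol from the 55822 genes of a count table of whole mouse kidney. They are Afmid, Kmo, Kynu, Haao and Qprt of the de novo arm, Acmsd at its side branch, Naprt and Nadsyn1 of the nicotinic acid arm, Nampt of nicotinamide salvage, and Nnmt, which removes nicotinamide. All 10 symbols were found, each on 1 row, and all 10 passed the filter on low counts. The study measured polyadenylated RNA of kidneys from male mice of the inbred strain C57BL/6J, 8 weeks of age, after 6 daily administrations, with harvest on day 7. Control mice received phosphate-buffered saline (PBS), and treated mice received puberulic acid, a tropolone made by some Penicillium moulds, at 1 mg per day. Both groups had 5 samples. Each sample is called a kidney below, although the labels do not say that each came from a separate mouse. The route was oral according to the series design, while the treatment protocol allows gavage or intraperitoneal injection, so the route of each mouse is not known here. Another 2 groups of 5 samples received Choleste-Help, a supplement, from lots named normal and toxic at 1000 mg per day, and these are not analysed here because the column names do not show which lot they hold.

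NAD carries electrons in the main energy-yielding reactions and is consumed by sirtuins and ADP-ribosyltransferases. The de novo arm starts from tryptophan, runs through kynurenine, 3-hydroxykynurenine and 3-hydroxyanthranilate to quinolinate, and is active in few tissues, of which liver and kidney proximal tubule are the best known. The nicotinic acid arm enters the same route after quinolinate, while salvage returns the nicotinamide released by NAD-consuming enzymes to NAD.

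Total estimated counts ran from 18409877 to 24705587 per library, and levels are given as CPM (counts scaled to a fixed library total), with library sizes corrected by trimmed mean of M-values (TMM). Over all 16266 genes tested, 31.1% were called lower and 34.2% higher with puberulic acid (edgeR, adjusted p under 0.05), to which the marker counts compare as follows. Of proximal tubule markers 14 of 15 were called lower, and their summed level was 46597 to 60387 CPM in controls against 9598 CPM in treated replicate 1 and 6685 to 7004 CPM in replicates 2 to 5. Macrophage and monocyte markers summed to 107 to 247 CPM in controls and 271 to 930 CPM with the compound (9 of 12 called higher), and fibroblast and pericyte markers to 168 to 248 CPM and 675 to 2500.5 CPM (8 of 10 higher). Of loop, distal and collecting duct markers 8 of 10 were lower, and their sum was 4627 to 6587 CPM in controls. Treated replicate 1 lay above that range, at 6730 CPM, and the other treated kidneys lay below it, at 3421 to 4327 CPM. Of endothelial markers 3 of 7 were lower, near the share over all genes. With libraries scaled to total counts instead, where 15.5% of all genes were lower and 56.4% higher, 4 of the former were lower and 1 higher, and 3 endothelial calls were lost, with a median log2 fold change of 0.05. Of 7 neutrophil markers 3 were tested and 2 of them were higher, with a summed level of 0.896 to 2.24 CPM in controls and 3.75 to 6.99 CPM with the compound, and Ly6g was at 0 in all 10 libraries. Of tested T and B cell markers 2 of 5 were higher, of podocyte markers 1 of 5 was lower, and of hepatocyte markers 2 of 4 were lower and 1 was higher; with total counts these were 3 of 5 higher, 1 of 5 higher, and 1 of 4 lower with 2 higher. In whole tissue, fewer cells of a type and less RNA per cell cannot be told apart, and the part of these shifts in the results below was not tested.

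Of the 10 NAD genes, 8 were lower with puberulic acid, 1 was higher and 1, Nampt, did not pass the test (edgeR quasi-likelihood test, adjusted p under 0.05). Over all 16266 genes tested, 65.3% were called, 31.1% lower and 34.2% higher. All 8 fell at least 2-fold and Nnmt rose more than 2-fold, where 13.6% of all genes were that much lower and 18.7% that much higher. With total-count scaling 5 of the 8 fell at least 2-fold, while Qprt fell by 0.86 and Nadsyn1 by 0.69 on the log2 scale and Kynu was at -0.76 (not called). Without control replicate 5, Kynu was just under 2-fold at -0.997. The CPM ranges of both groups lay apart for 7 of the falling genes and for Nnmt. The ranges lay apart for 50.1% of all genes tested, 24.0% lower and 26.1% higher. The median log2 fold change of the 10 genes was -1.67, against 0.05 over all genes tested. Scaling to total counts moved the median of all genes to 0.56 and that of the 10 genes to -1.16, with 7 lower and 1 higher, where 15.5% of all genes were lower and 56.4% higher.

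**Figure D1:**
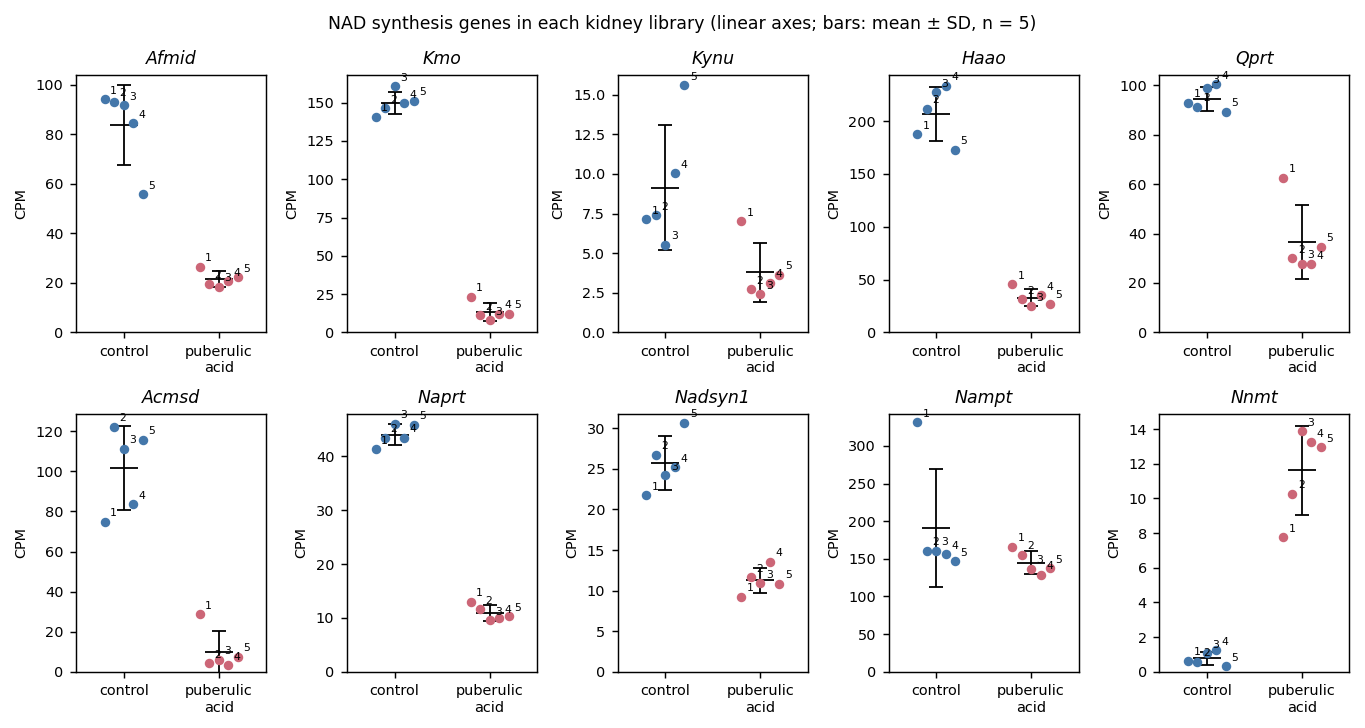
Level of each NAD gene in CPM (linear axes from 0) in the 5 control and 5 puberulic acid samples, with replicate numbers beside the points and bars for mean ± SD (the lower Acmsd bar is cut at 0). Treated samples lie below all controls for 7 genes and above them for Nnmt, while Nampt and Kynu overlap.

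The de novo arm was described along its reactions. Afmid (ENSMUSG00000017718), which hydrolyses N-formylkynurenine to kynurenine, stood at 94.1, 93.2, 91.7, 84.5 and 55.8 CPM in control replicates 1 to 5 and at 26.6, 19.6, 18.4, 20.6 and 22.2 CPM in treated replicates 1 to 5. Every treated kidney lay below the lowest control, replicate 5. Its log2 fold change was -1.96 ± 0.15 (SE, edgeR adjusted p = 5.71e-07), or 3.9-fold lower.

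Kmo (ENSMUSG00000039783), the flavin enzyme that commits kynurenine to 3-hydroxykynurenine, fell strongly. Its levels were 141, 146, 161, 149.7 and 151 CPM in controls and 23.4, 11.4, 7.92, 12.1 and 12.2 CPM with puberulic acid. Controls differed little among themselves (149.8 ± 7.31 CPM, SD, n = 5), and treated replicate 1 was the highest treated kidney, far below every control. The fall was 11.1-fold (log2 fold change -3.48 ± 0.24, SE, edgeR adjusted p = 2.28e-07), rank 99 of 16266 tested genes ordered by fall.

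Kynu (ENSMUSG00000026866), kynureninase, was the scarcest of the falling transcripts in reads, with 87 to 240 counts per control library and 57 to 189 per treated library. Its levels were 7.13, 7.38, 5.54, 10.0 and 15.6 CPM in controls and 7.01, 2.73, 2.41, 3.14 and 3.63 CPM with puberulic acid. The groups overlapped because treated replicate 1 lay within the control range, while replicates 2 to 5 lay below it. The fitted log2 change was -1.27 ± 0.34 (SE, edgeR adjusted p = 0.0063). This call was lost with total-count scaling, which gave -0.76 (adjusted p = 0.0629, edgeR).

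Haao (ENSMUSG00000000673), the dioxygenase that opens the ring of 3-hydroxyanthranilate, had 187, 212, 227, 234 and 173 CPM in controls and 45.8, 31.3, 24.9, 35.4 and 27.0 CPM with puberulic acid. No treated kidney came near the control range. It was 6.28-fold lower (log2 fold change -2.65 ± 0.17, SE, edgeR adjusted p = 1.13e-07).

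Qprt (ENSMUSG00000030674), which turns quinolinate into nicotinic acid mononucleotide and so closes the de novo arm, fell less. Control levels were 93.0, 91.3, 98.8, 100.5 and 89.4 CPM, and treated levels were 62.6, 30.0, 27.9, 27.7 and 34.7 CPM. Replicate 1 was again the highest treated kidney, but it too lay below every control. Its log2 fold change was -1.37 ± 0.21 (SE, edgeR adjusted p = 0.000101), or 2.58-fold lower.

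Acmsd (ENSMUSG00000026348) encodes the decarboxylase that draws the intermediate before quinolinate away from NAD. Its levels were 74.9, 122, 111, 83.6 and 116 CPM in controls and 28.6, 4.30, 5.93, 3.10 and 7.42 CPM with puberulic acid. The groups lay apart, and treated replicate 1 was several times the level of the other treated kidneys. The log2 fold change was -3.36 ± 0.54 (SE, edgeR adjusted p = 0.000163), or 10.2-fold lower, and it was -4.31 (edgeR adjusted p = 7.22e-08) without treated replicate 1.

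Promoter sequence was at hand for 7 of the 10 genes (RefSeq, build GRCm38.p6, matched by symbol), and not for Kynu, Naprt and Nnmt. The 250 bases before the start site of each gene were searched for letters known from nuclear receptor and E-box sites. The motif GGTCAAAG, the core of a nuclear receptor direct repeat, was picked after the sequences had been seen. On either strand it occurred in Kmo and Haao, and in 0.834% of 32851 promoter windows of the same length. The longer HNF4 motif CAAAGTCCA (0.384% of windows) and the E-box CACGTG (6.02%) were found in none of the 7. A match of letters does not show that a factor binds there. The 3 windows below show both matches and, for contrast, the window of Nampt, 5′ to 3′ on the strand of the gene, with the first motif in capitals as its reverse complement.
Kmo (chr1:175631943-175632192, plus strand): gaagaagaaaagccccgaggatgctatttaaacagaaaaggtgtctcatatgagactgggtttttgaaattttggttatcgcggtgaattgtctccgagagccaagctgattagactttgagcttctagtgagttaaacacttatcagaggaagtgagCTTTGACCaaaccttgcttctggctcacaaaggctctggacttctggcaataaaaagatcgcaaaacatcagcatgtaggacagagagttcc
Haao (chr17:83846791-83847040, minus strand): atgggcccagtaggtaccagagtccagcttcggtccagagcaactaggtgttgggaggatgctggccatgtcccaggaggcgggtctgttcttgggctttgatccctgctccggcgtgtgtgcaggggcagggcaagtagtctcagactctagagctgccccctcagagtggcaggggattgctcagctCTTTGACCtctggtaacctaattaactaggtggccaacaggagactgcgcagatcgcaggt
Nampt (chr12:32820085-32820334, plus strand): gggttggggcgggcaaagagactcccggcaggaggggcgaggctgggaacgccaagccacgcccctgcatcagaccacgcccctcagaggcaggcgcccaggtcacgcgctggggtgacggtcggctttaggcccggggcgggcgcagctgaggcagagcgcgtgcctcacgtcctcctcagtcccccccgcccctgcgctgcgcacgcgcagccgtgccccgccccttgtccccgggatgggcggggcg
In Kmo the match lay 92 to 85 bases before the start site and in Haao 61 to 54. G and C made up 42.8% of the Kmo window, 58.4% of the Haao window and 75.6% of the Nampt window, with a median of 52.4% over all windows. The Nampt window held 27 CpG dinucleotides, against 5 in Kmo and 6 in Haao, with a median of 6 over all windows. The windows of falling genes without the first motif held 23 (Nadsyn1), 15 (Afmid), 6 (Qprt) and 1 (Acmsd).

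In the nicotinic acid arm both genes fell. Naprt (ENSMUSG00000022574), which loads nicotinic acid onto a ribose phosphate, had 41.3, 43.4, 46.1, 43.5 and 45.9 CPM in controls and 13.0, 11.6, 9.57, 9.94 and 10.3 CPM with puberulic acid. Both groups were narrow and far apart. Its log2 fold change was -2.01 ± 0.10 (SE, edgeR adjusted p = 2.1e-08), or 4.04-fold lower.

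Nadsyn1 (ENSMUSG00000031090), the glutamine-dependent NAD synthetase that serves both the de novo and the nicotinic acid arm, had 21.7, 26.7, 24.2, 25.2 and 30.7 CPM in controls and 9.24, 11.7, 10.9, 13.6 and 10.9 CPM with puberulic acid. The groups lay apart, and here treated replicate 1 was the lowest, not the highest, of its group. The log2 fold change was -1.19 ± 0.13 (SE, edgeR adjusted p = 5.97e-06). Of the 8 falling genes, 7 were highest in replicate 1 among the treated kidneys, Nadsyn1 being the exception.

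Nampt (ENSMUSG00000020572), the rate-limiting enzyme of nicotinamide salvage, had 332, 161, 161, 156 and 147 CPM in controls and 166, 155, 137, 129 and 138 CPM with puberulic acid. Control replicate 1 was well above all other kidneys, and the remaining controls overlapped with the treated group. The log2 fold change of -0.40 ± 0.21 (SE) did not pass the test (edgeR adjusted p = 0.115). Without control replicate 1 it was -0.12 (edgeR adjusted p = 0.272), and with total-count scaling the value turned to 0.11 (edgeR adjusted p = 0.639). The same control library was also the highest control for several ADP-ribosyltransferase genes of the interferon response, with Parp14 at 75.5 CPM against 9.17 to 12.03 CPM in the other controls and Parp9 at 75.1 CPM against 12.5 to 16.3 CPM, genes picked after their values were seen. The part of this in the Nampt value was not tested.

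Nnmt (ENSMUSG00000032271), which methylates nicotinamide and so takes it out of salvage, was the only one of the 10 genes to rise. Its levels were 0.628, 0.580, 1.08, 1.25 and 0.325 CPM in controls, from 5 to 20 counts per library, and 7.76, 10.3, 13.9, 13.2 and 12.9 CPM with puberulic acid, from 209 to 403 counts. All treated kidneys were above all controls, and replicate 1 was the lowest of them. The log2 fold change was 3.91 ± 0.31 (SE, edgeR adjusted p = 7.07e-07), or 15.01-fold higher, rank 484 of 16266 genes ordered by rise. The fibroblast and macrophage marker sums given above were likewise lowest in replicate 1 among the treated kidneys, at 675 and 271 CPM. Their part in the Nnmt result was not tested.

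**Figure D2:**
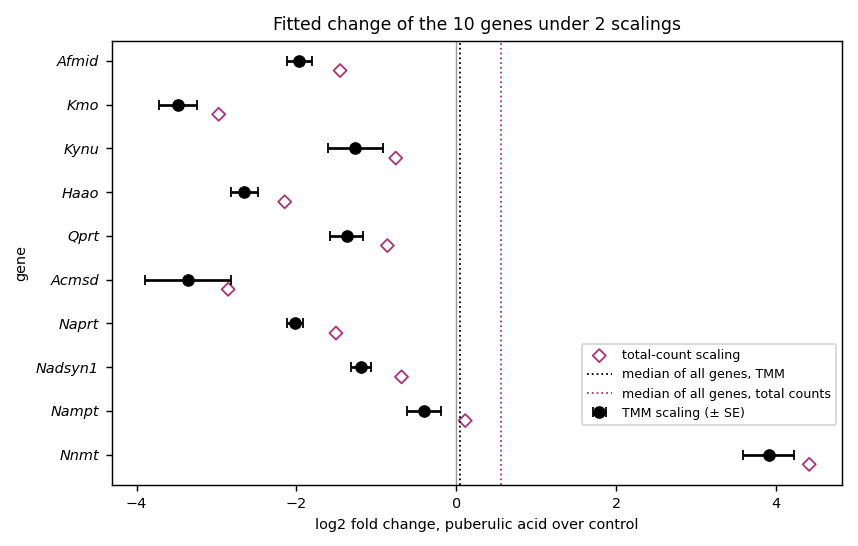
Fitted log2 fold change of puberulic acid over control for each NAD gene, with TMM scaling (filled circles, bars ± SE) and total-count scaling (open diamonds); dotted lines mark the median of all tested genes, 0.05 and 0.56. The 8 falling genes lie left of 0 and Nnmt lies right of 0 under both scalings, and Nampt moves from -0.40 to 0.11.

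To compare competing reactions without any library scaling, the log2 ratio of the counts of a pair of genes was taken within each library. Only its difference between groups is read, since the ratio itself depends on transcript length. Of 4 ratios, 4 differed between the groups in exact two-sided permutation tests, adjusted over the 4; the smallest p that 5 against 5 allows is 0.00794. The ratio of Acmsd to Qprt, for the competing fates of the intermediate before quinolinate, was -0.31, 0.42, 0.17, -0.27 and 0.37 in controls and -1.13, -2.80, -2.23, -3.15 and -2.22 with puberulic acid. Acmsd thus lost more than Qprt in each treated kidney, with a mean difference of -2.38 on the log2 scale (exact permutation p = 0.00794, adjusted 0.0106).

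The ratio of Aadat to Kmo sets the enzyme that turns kynurenine into kynurenic acid against the one that makes 3-hydroxykynurenine. It was 1.41, 1.44, 1.09, 1.08 and 1.02 in controls and 2.84, 2.77, 3.34, 2.76 and 2.91 with puberulic acid. All treated values were higher, by 1.72 on average (exact permutation p = 0.00794, adjusted 0.0106), although Aadat itself fell, from 347 ± 38.4 to 99.99 ± 38.3 CPM (mean ± SD, both groups n = 5).

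The ratio of Nnmt to Nampt, methylation against salvage of nicotinamide, was -8.98, -8.05, -7.17, -6.93 and -8.69 in controls and -4.41, -3.92, -3.30, -3.28 and -3.41 with puberulic acid. The groups lay apart by 4.30 on average (exact permutation p = 0.00794, adjusted 0.0106). The ratio of Nampt to Qprt, salvage against de novo synthesis, was 1.83, 0.81, 0.70, 0.63 and 0.72 in controls and 1.41, 2.37, 2.30, 2.21 and 1.99 with puberulic acid. It was 1.11 higher on average (exact permutation p = 0.0159, adjusted 0.0159), with overlap between control replicate 1 and treated replicate 1, and 1.34 higher without control replicate 1.

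**Figure D3:**
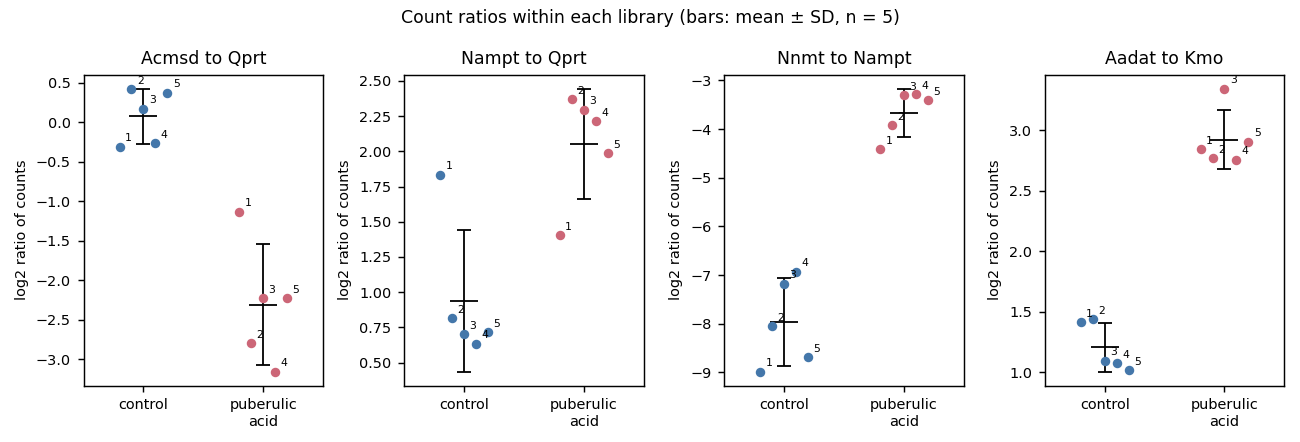
Log2 ratio of estimated counts of 4 gene pairs within each library, with replicate numbers and bars for mean ± SD (n = 5). The groups are apart for 3 ratios, and in the ratio of Nampt to Qprt control replicate 1 (1.83) lies above treated replicate 1 (1.41).

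Other genes that feed, branch from or complete NAD synthesis fell for the most part. Of 28 symbols, on 29 rows because Nnt is listed on 2, 24 rows passed the low-count filter, with 18 lower, 4 higher and 2 not called (median log2 fold change -0.97), where 31.1% of all genes were lower and 34.2% higher. With total-count scaling 13 were lower and 5 higher, where 15.5% of all genes were lower and 56.4% higher. Tdo2, the main tryptophan dioxygenase of liver, was at 0 in all libraries. Ido2, a tryptophan dioxygenase with low activity, fell from 12.2 ± 2.91 to 2.29 ± 1.33 CPM (mean ± SD, both groups n = 5; log2 fold change -2.41 ± 0.33, SE, edgeR adjusted p = 5.36e-05).

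Aldh8a1, a dehydrogenase of the side branch after Acmsd, fell from 377 ± 34.9 to 69.0 ± 22.04 CPM (mean ± SD, both groups n = 5; log2 fold change -2.45 ± 0.18, SE). Nudt12, which cleaves NADH, fell by 2.20 ± 0.16 on the log2 scale (SE). One row of Nnt, the mitochondrial transhydrogenase (ENSMUSG00000116207), fell by 2.26 and the other (ENSMUSG00000025453) by 0.94; how reads were divided between them is not stated, C57BL/6J mice carry a deletion within this gene, and both values are uncertain. Aox1, which oxidises the product of Nnmt, rose from 0.656 ± 0.217 to 2.73 ± 0.84 CPM (mean ± SD, both groups n = 5; log2 fold change 2.04 ± 0.31, SE, edgeR adjusted p = 0.000102).

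Nmrk1, Nmnat1 and Nmnat3, which complete salvage from nicotinamide riboside and mononucleotides, were looked at after their values were seen. Nmrk1 fell by 1.79 ± 0.16 on the log2 scale (SE, edgeR adjusted p = 1.36e-06). Nmnat1 fell by 0.80 ± 0.13 (SE, edgeR adjusted p = 0.000227) and Nmnat3 by 0.71 ± 0.15 (SE, edgeR adjusted p = 0.00129), and with total-count scaling both missed the threshold (edgeR adjusted p = 0.0874 and 0.245).

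Among enzymes that consume NAD, 23 of 24 genes passed the low-count filter, of which 6 were higher, 6 lower and 11 not called (median log2 fold change 0.22). That is 12 of 23 called, below the 65.3% called over all genes. With total-count scaling 15 were higher and 4 lower, where 56.4% of all genes were higher and 15.5% lower, so the split of this list depends on scaling, and without control replicate 1 the TMM fit called 9 higher and 6 lower, and 4 higher without treated replicate 4 or 5. Of the 7 sirtuins 5 were lower, Sirt1 was higher and Sirt6 was not called, where 31.1% of all genes were lower and 34.2% higher. With total-count scaling Sirt5 lost its call and Sirt6 was higher. Sirt3, the main mitochondrial deacetylase, fell from 95.9 ± 8.68 to 24.7 ± 7.18 CPM (mean ± SD, both groups n = 5; log2 fold change -1.96 ± 0.17, SE, edgeR adjusted p = 1.15e-06). Mitochondrial Sirt4 fell by 1.60 ± 0.19, nucleolar Sirt7 by 1.09 ± 0.10 and cytosolic Sirt2 by 0.83 ± 0.07 on the log2 scale (SE). Nuclear Sirt1 rose by 0.63 ± 0.12 (SE, edgeR adjusted p = 0.000781), from 18.3 ± 2.44 to 28.2 ± 3.69 CPM (mean ± SD, both groups n = 5).

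Bst1, a cell-surface ADP-ribosyl cyclase, rose too, at 15.3, 11.4, 11.1, 12.2 and 6.62 CPM in controls and 29.8, 87.8, 72.1, 75.2 and 51.2 CPM with puberulic acid. Every treated kidney was above every control (log2 fold change 2.48 ± 0.29, SE, edgeR adjusted p = 1.3e-05). Parp1, the main DNA damage-dependent ADP-ribosyltransferase, had a level of 39.6 ± 2.34 CPM among controls and 39.2 ± 2.05 CPM with the compound (mean ± SD, both groups n = 5; log2 fold change -0.02 ± 0.07, SE, edgeR adjusted p = 0.853), and total-count scaling gave it 0.49 (edgeR adjusted p = 0.000116); it was looked at after its values were seen.

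Of 6 genes for upstream regulators of mitochondrial and proximal tubule metabolism, 5 were lower and Tfam was not called (median log2 fold change -1.31), where 31.1% of all genes were lower. With total-count scaling 4 were lower (median -0.80), where 15.5% of all genes were, as Ppargc1b missed the threshold. Hnf4a fell from 705 ± 44.4 to 170.1 ± 40.1 CPM (mean ± SD, both groups n = 5), which is a log2 change of -2.05 ± 0.14 (SE, edgeR adjusted p = 2.47e-07). Esrra, a nuclear receptor of mitochondrial genes, fell by 1.43 ± 0.14 on the log2 scale (SE). Ppargc1a, a coactivator known to raise de novo NAD enzymes in kidney, had 75.3, 56.1, 56.6, 56.8 and 51.2 CPM in controls and 48.9, 19.2, 21.4, 15.9 and 24.5 CPM with puberulic acid. Treated replicate 1 lay just under the lowest control, and the log2 fold change was -1.19 ± 0.26 (SE, edgeR adjusted p = 0.00183).

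**Figure D4:**
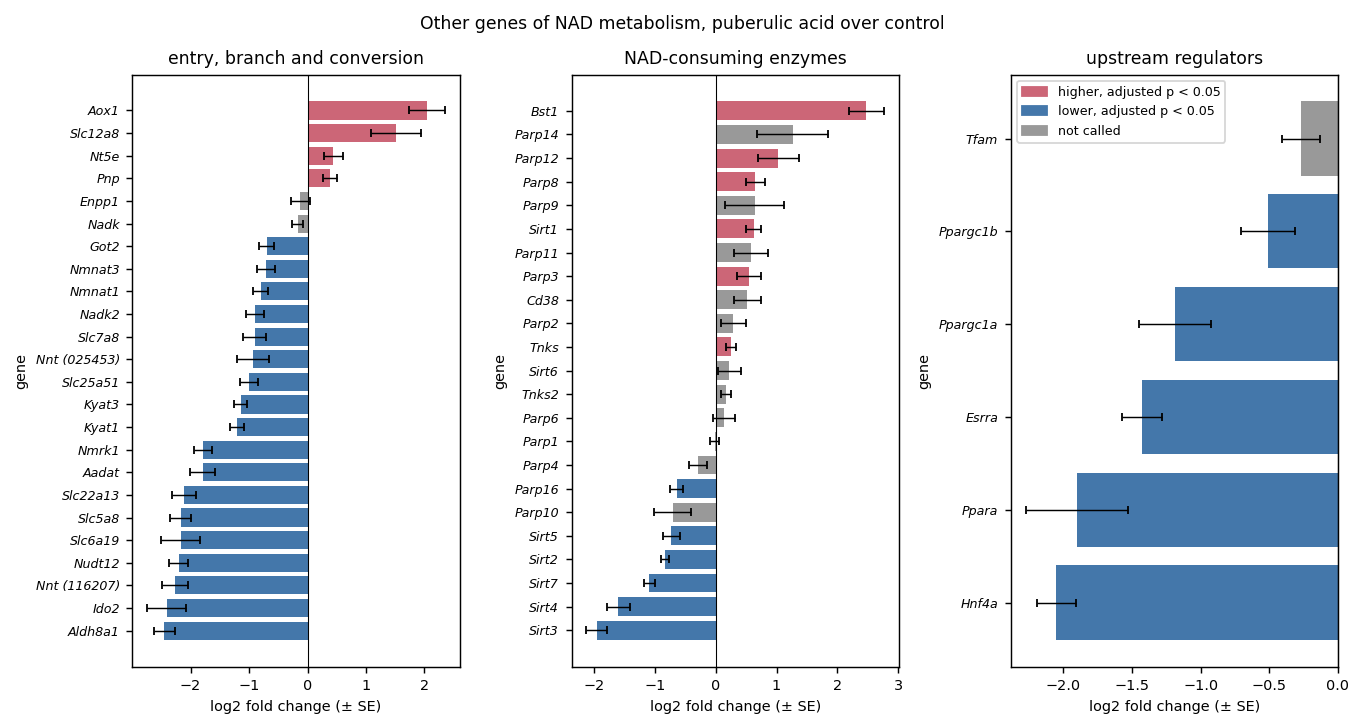
Log2 fold change (bars ± SE, edgeR, TMM scaling) of the tested genes of 3 lists around NAD synthesis, coloured by call at adjusted p under 0.05. Most entry, branch and conversion genes (18 of 24) and regulators (5 of 6) lie lower, and NAD-consuming enzymes split into 6 higher and 6 lower.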

How the data were processed

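Polyadenylated RNA of whole kidney was sequenced from directional libraries, per the labels' protocols. The authors deposited estimated counts per gene, with no normalization stated. The submitters' processing notes name fastp 0.22.0, FastQC 0.12.1, MultiQC 1.28, Salmon 1.10.3, DESeq2 and the build GRCm39, with no role or order, and the annotation is not given in the sources used here. Columns were assigned to samples by name. 10 sample columns matched no single group and were not used. Symbols were found for 51344 of 55822 identifiers in a reference table of gene names.

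Counts were rounded to whole numbers, filtered with filterByExpr, scaled with TMM and tested with glmQLFit and glmQLFTest of edgeR 4.0.16 (R 4.3.3) on the 10 control and puberulic acid samples, with Benjamini-Hochberg adjustment over all 16266 genes tested. The fit was tested on simulated data. The SE was derived from the fold change and the F statistic (log2 fold change over root F). Ratios used a pseudocount of 0.5. From each pathway list up to 4 genes per direction with the largest changes were named, among called genes of at least 1 CPM whose groups did not overlap. The members, lists and tests were chosen with earlier results of these data known. The labels number the samples but do not say that each came from a separate mouse, so p-values measure only the spread between these samples, which may be technical. One gene of the regulator list and one motif are not reported here. Alternatives were other scalings and filters, DESeq2 1.42.0, a robust fit, limma-voom 3.58.1, a replicate block and leaving out each sample.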

Additional observations from a re-analysis of the deposited data

Results flagged for a closer look

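Within each group of 5, every NAD gene and ratio was searched for a kidney lying apart from the rest, with a gap to the next value above 0.71 of the whole range. Of 28 groups, 8 held one; about 1.4 would be so by chance for independent values, and genes of one library are not independent. Treated replicate 1 stood highest in its group for Qprt (62.6 CPM), Kynu (7.01 CPM), Kmo (23.4 CPM) and Acmsd (28.6 CPM). The summed proximal tubule markers of that kidney were 9598 CPM against 6685 to 7004 CPM in the other treated kidneys, and their part was not tested. Control replicate 1 stood highest among controls for Nampt (332 CPM) and for the log2 ratio of Nampt to Qprt (1.83). Control replicate 5 was the lowest control for Afmid (55.8 CPM). Treated replicate 3 had the highest log2 ratio of Aadat to Kmo in its group (3.34).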

How the results depend on the processing

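The 8 NAD genes called lower and Nnmt kept their direction in all 20 alternative fits, and their calls too except for Kynu with total counts. With total counts Nampt turned from -0.40 to 0.11 and Kynu was -0.76, and 9179 genes were called higher and 2526 lower against 5564 and 5058. Total counts without mitochondrially encoded and the 10 most abundant genes called 8088 genes higher and 3135 lower. NAD-consuming enzymes numbered 19 called (15 higher) with total counts and 20 called (14 higher) with that second scaling, against 12 (6 higher). Requiring at least 2-fold left 5264 genes, 3048 higher and 2216 lower. It left 14 entry, branch and conversion genes (2 higher) of 22 (4 higher), and 5 NAD-consuming enzymes (2 higher, 3 lower). Fits that left out 1 sample called 10104 to 11108 genes in all and 10 to 15 NAD-consuming enzymes, 4 to 9 of them higher. Of the regulators 4 or 5 were lower in each alternative.

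Same-numbered samples share only a number: their deviations from the group means had correlations of -0.172 to 0.039. With the replicate block the same counts of NAD genes were called, 8 lower and 1 higher. Pairing the ratios by number allows no exact p under 0.0625, so no ratio could pass the threshold that way. Acmsd to Qprt (-2.38), Nnmt to Nampt (4.30) and Aadat to Kmo (1.72) each kept their direction in every pair. Their adjusted exact p was 0.0833. Nampt to Qprt (1.11) did not: it fell from 1.83 to 1.41 in pair 1 and rose in the others. Its adjusted exact p of 0.125 was thus not set by that limit alone. Among the 10 genes, depth limits Nnmt in controls most, at 5 to 20 counts, where a limit of 3 counts is 0.158 to 0.195 CPM. That limit covers counting error only. For the genes that the naming rule took from the 3 pathway lists, the alternatives were added after seeing the data and changed no call or direction. They were not all examined for the genes looked at after their values were seen. Among those genes, total counts ended the calls of Nmnat1 and Nmnat3 and gave Parp1 one.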
